A study of Canis lupus familiaris with 8 samples.

Results

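The genes described here encode the potassium channel subunits that repolarise the cardiac muscle cell: KCNJ2, KCNH2, KCND3 and KCNIP2. They were chosen by name from a list of 6, and every probe set to which the platform annotation gave 1 of these symbols alone was taken. That gave 10 of the 23913 probe sets on each array, namely 4 for KCNH2, 3 for KCND3, 2 for KCNIP2 and 1 for KCNJ2. The other 2 listed genes, KCNQ1 and KCNE1, were given to no probe set in this way and are not analysed here. The 4 HHcy dogs had received methionine in their drinking water for 2 weeks to raise blood homocysteine (hyperhomocysteinemia), and the 4 control dogs had not. All 8 were male, weighed 23 to 27 kg and gave cardiac total RNA to 1 Affymetrix canine array each, numbered 5 to 8 in HHcy and 1 to 4 in controls. The labels name neither chamber nor wall layer, and give no strain or age. The study asked how chronic hyperhomocysteinemia changes cardiac gene expression, and potassium channels are not named in its title or design text.

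Repolarisation ends each heartbeat's action potential by letting potassium leave the muscle cell through several channels that open in turn. KCND3 forms the pore of the fast transient outward current, which shapes the early notch of the canine action potential, and KCNIP2 is its calcium-binding accessory subunit. KCNH2 forms the pore of the rapid delayed rectifier, whose block or loss lengthens the QT interval. KCNJ2 forms inward rectifier channels, which hold the resting potential and finish repolarisation. In dog ventricle, KCNIP2 transcript is known to be more abundant in the outer than in the inner wall.

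The muscle transcripts of 1 dog stood apart from the rest. The 14 measured cardiomyocyte markers of a list of 20 had summed signals of 25541 on HHcy 6 and 308169 to 349365 on the other HHcy arrays, against 284097 to 441331 on the controls. On the same array the signal ratio of the 3' to the 5' end of actin, a sign of RNA quality, was 599.6, and it was 15.3 on HHcy 5, 2.67 and 1.69 on HHcy 7 and HHcy 8, and 0.378 to 2.49 on the controls. The same ratio for GAPDH was highest on HHcy 5, at 17.2, and was 10.5 on HHcy 6 and 5.14 and 3.56 on HHcy 7 and HHcy 8, against 1.46 to 3.76 on the controls. Over all tested probe sets HHcy 6 had the lowest signal of the 8 arrays in 17.9% and the highest in 35.3%. Ventricular markers were bright elsewhere: MYL2, the ventricular regulatory light chain, had a signal of 3542 on HHcy 6 and 32716 to 43038 on the other HHcy arrays, against 26624 to 45295 on the controls. The atrial light chain MYL7 was also present, with signals of 38.0 on HHcy 6 and 712 to 1999 on the other HHcy arrays, against 1412 to 8411 on the controls. Of 6 listed ventricular markers, 3 were measured, MYL2, MYL3 and MYH7. On its brightest probe set MYL3 had 6933 to 14579 on HHcy arrays other than HHcy 6, against 13604 to 23836 on the controls. MYH7 had 30226 to 40337, against 24557 to 41458. Other probe sets were dim, with 5.90 to 226.7 for MYH7 1599597_at and 27.5 to 591.7 for MYL3 1596724_at over the 8 arrays. The 3 were thus bright on 7 arrays on their brightest probe sets, and transcripts of an atrial marker were measured beside them. In whole tissue, fewer muscle cells and less RNA per muscle cell cannot be told apart. The part of RNA quality in these marker values was not tested.

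No potassium channel probe set passed the test for a difference between HHcy and control hearts. For KCNIP2 and KCNH2, the brightest probe set had a very low signal on HHcy 6 and signals within or near the control range on the other HHcy arrays. KCND3 showed no such low value on HHcy 6. KCNJ2 was dim on all 8 arrays. With limma and Benjamini-Hochberg adjustment over all 14301 probe sets bright enough to test, 0 of the 4 tested potassium channel probe sets passed (0 at an unadjusted p under 0.05; 17.8% of all tested probe sets lay under it), beside 0.0979% of all tested probe sets. The other 6 lay below the brightness filter, and fitted without it 0 of the 10 passed, beside 0.0587% of all probe sets. By an exact permutation test 0 of the 10 had an unadjusted p under 0.05. With 4 arrays in each group that p falls under 0.05 only where the groups do not overlap, so this count follows from the overlap given next. In each of the 10 probe sets the groups overlapped. Over all tested probe sets, which leave out 6 of the 10, the groups did not overlap in 11.4%, HHcy lying above in 7.49% and below in 3.89%. Beside such a share, 0 of the 10 without overlap does not set these genes apart.

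**Figure D1:**
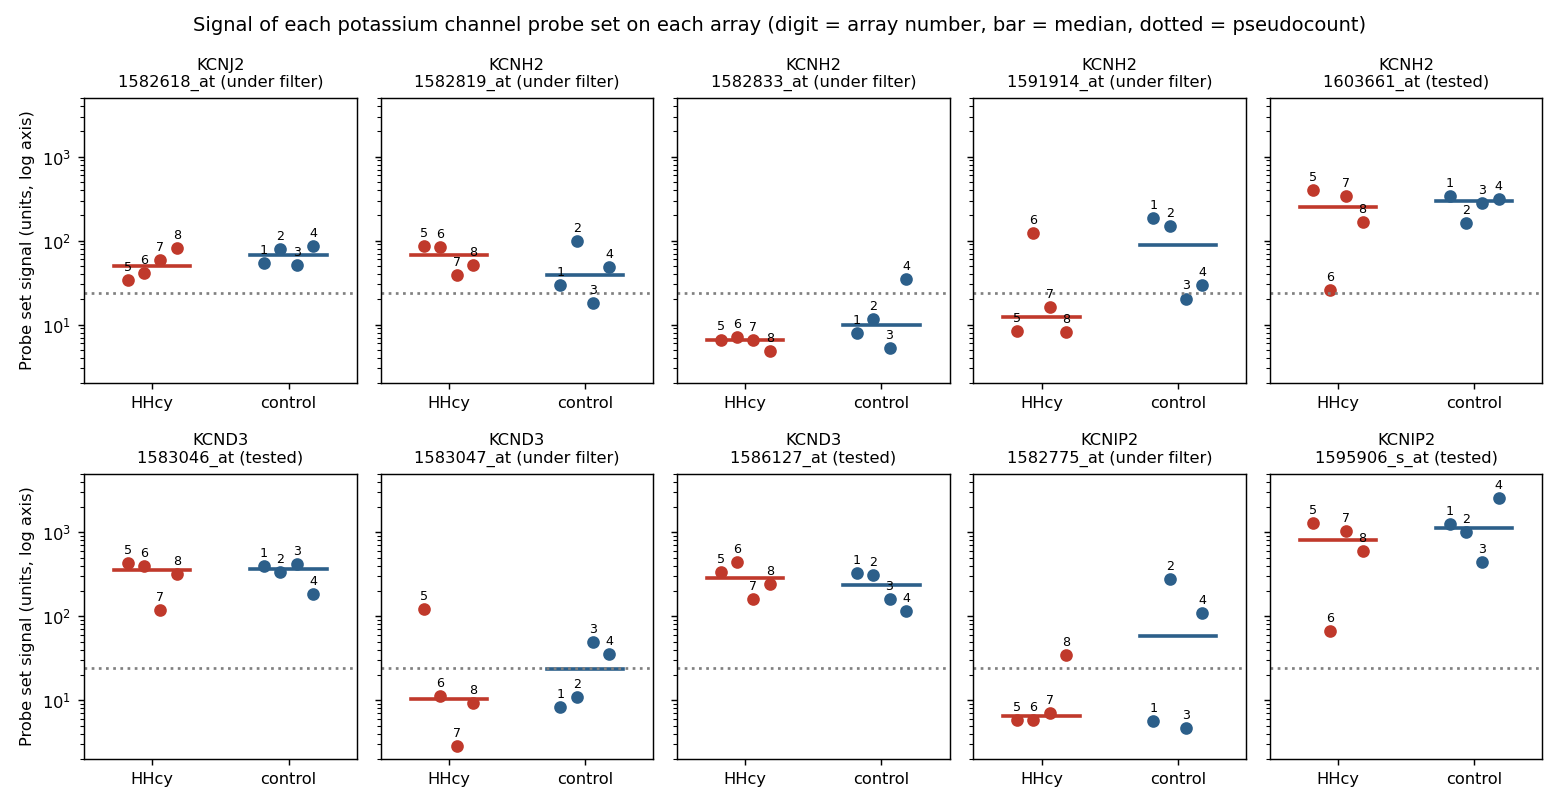
Signal of each of the 10 potassium channel probe sets on a logarithmic axis, with HHcy arrays on the left of each panel and control arrays on the right. Each point is 1 dog with its array number, bars are group medians, and the dotted line is the pseudocount of 24. KCNIP2 1595906_s_at and KCNH2 1603661_at have their lowest points on HHcy 6, at 66.3 and 25.9.

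KCNIP2 was measured best by probe set 1595906_s_at, whose suffix marks probes shared by several transcripts. Its signal was 1274, 66.3, 1030 and 603.5 on HHcy 5 to 8, against 1261, 1005, 439.4 and 2560 on controls 1 to 4. HHcy 6 was the lowest of the 8 and control 4 the highest, and the other 3 HHcy dogs lay inside the control range. The group means were 744 ± 530 (SD) in the 4 HHcy dogs and 1316 ± 897 (SD) in the 4 control dogs. The log2 fold change, computed as HHcy minus control on signals with the pseudocount of 24 added, was -1.09 ± 0.76 (SE, limma adjusted p 0.454). Its 95% interval ran from -2.75 to 0.57, which covers folds from 0.149 to 1.49. Without HHcy 6 the log2 fold change was -0.24 (limma adjusted p 0.831). The spread among controls alone was 5.83-fold between control 4 and control 3.

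A further KCNIP2 probe set, 1582775_at, was near background on most arrays. Its signal was 5.81, 5.86, 7.03 and 34.9 on HHcy 5 to 8, against 5.58, 279.4, 4.67 and 110.4 on controls 1 to 4. Thus 3 HHcy dogs and 2 control dogs lay under 24, the other 2 control dogs were above every HHcy dog, and the groups overlapped. The mean log2 difference was -1.10 (exact two-sided permutation p = 0.429, the smallest possible being 0.0286), and no fold is given because most signals lie under the pseudocount.

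KCND3, the pore partner of KCNIP2, had similar levels in both groups on its brightest probe set, 1583046_at. Its signal was 434.0, 398.3, 119.1 and 318.9 on HHcy 5 to 8, against 398.3, 332.2, 417.8 and 184.5 on controls 1 to 4. HHcy 6 was as bright as control 1, and the low arrays were HHcy 7 and control 4. The means were 318 ± 141 (SD) in the 4 HHcy dogs and 333 ± 106 (SD) in the 4 control dogs, with a log2 fold change of -0.14 ± 0.40 (SE, limma adjusted p 0.874). The 95% interval was -1.01 to 0.74, or folds from 0.496 to 1.67. Without HHcy 7 the sign turned, to 0.24 (limma adjusted p 0.703).

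The KCND3 probe set 1586127_at had signals of 333.3, 441.6, 161.9 and 242.0 on HHcy 5 to 8, against 328.0, 311.3, 162.6 and 116.0 on controls 1 to 4. Here HHcy 6 was the highest of the 8 arrays, and control 4 and HHcy 7 were again the lowest pair. The log2 fold change was 0.35 ± 0.39 (SE, limma adjusted p 0.640), with a 95% interval from -0.50 to 1.21. The KCND3 probe set 1583047_at was dim, at 120.7, 11.3, 2.88 and 9.28 on HHcy 5 to 8, against 8.39, 10.9, 49.2 and 35.7 on controls 1 to 4. Only HHcy 5 exceeded 50 there, and the mean log2 difference was -0.028 (exact permutation p = 0.971), running from -0.58 to 0.23 as each array was left out. The KCND3 probe sets thus had log2 differences on both sides of 0, none of them larger than the spread between dogs.

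**Figure D2:**
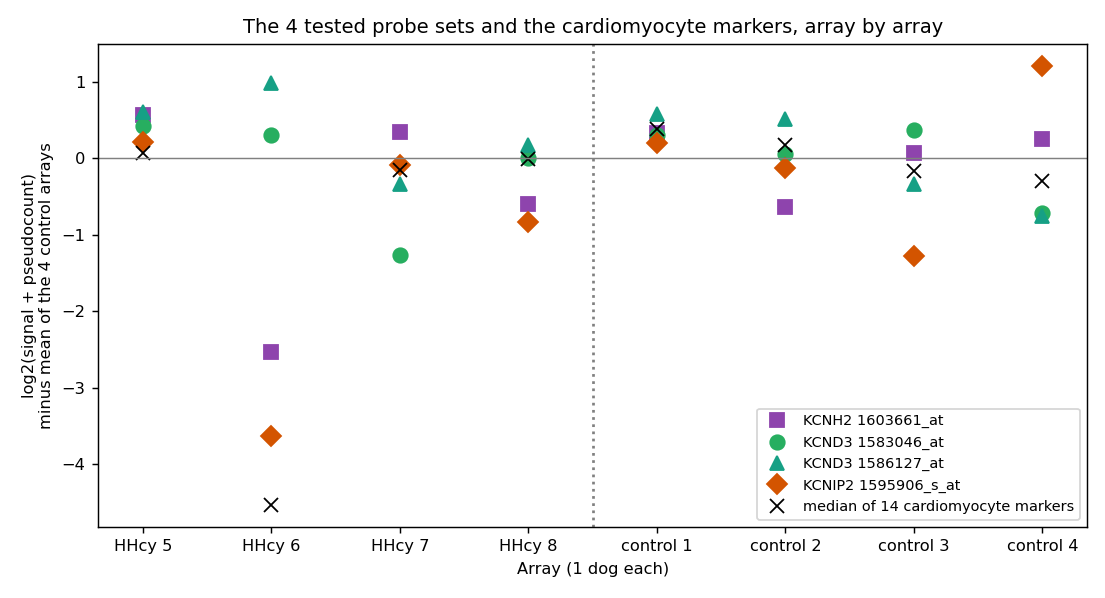
Each of the 4 tested potassium channel probe sets and the median of 14 cardiomyocyte markers, as log2(signal + 24) minus the mean of the 4 control arrays, by array (1 dog each). On HHcy 6 the marker median is -4.53, KCNIP2 is at -3.63 and KCNH2 at -2.53, while the KCND3 probe sets are at 0.30 and 0.98.

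The accessory subunit was also set against its pore partner within each array, as log2 KCNIP2 (1595906_s_at) minus log2 KCND3 (1583046_at). This difference was 1.50, -2.23, 2.88 and 0.87 on HHcy 5 to 8, against 1.61, 1.53, 0.069 and 3.63 on controls 1 to 4. Levels of different probe sets are not comparable, so only its differences between arrays can be read. HHcy 6 was the lowest array, and the other 3 HHcy dogs lay inside the control range. The means were 0.76 ± 2.16 (SD) in the 4 HHcy dogs and 1.71 ± 1.46 (SD) in the 4 control dogs, a difference of -0.95 (exact two-sided permutation p = 0.514, 1 such comparison made). Without HHcy 6 the difference was 0.043 (exact p = 0.943). The cardiomyocyte marker median, -4.53 on HHcy 6 and -0.16 to 0.067 on the other HHcy arrays, against -0.30 to 0.37 on the controls, moved with KCNIP2 there, and its part in the result was not tested beyond leaving that array out.

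KCNH2 was brightest on probe set 1603661_at, with signals of 402.3, 25.9, 340.1 and 166.7 on HHcy 5 to 8, against 336.8, 160.6, 278.3 and 316.7 on controls 1 to 4. HHcy 6 was the lowest array and HHcy 5 the highest, so that the control dogs lay inside the HHcy range. HHcy 6 was lowest in 2 of the 10 potassium channel probe sets, both among the 4 tested, beside 17.9% of all tested probe sets. The means were 234 ± 171 (SD) in the 4 HHcy dogs and 273 ± 78.8 (SD) in the 4 control dogs. The log2 fold change was -0.55 ± 0.58 (SE, limma adjusted p 0.623), with a 95% interval from -1.83 to 0.72. Without HHcy 6 its sign turned, to 0.10 (limma adjusted p 0.907).

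The other KCNH2 probe sets were dim and disagreed in sign. Probe set 1591914_at had 8.48, 123.1, 16.1 and 8.25 on HHcy 5 to 8, against 186.0, 148.4, 20.4 and 29.7 on controls 1 to 4. Apart from HHcy 6 every HHcy dog lay below every control dog, and the mean log2 difference was -0.95 with that dog (exact permutation p = 0.171) and -1.47 without it (exact permutation p = 0.114). In HHcy 3 of these 4 signals lie under the pseudocount, as does 1 control signal, so no fold is given. HHcy 6 was thus low on the bright KCNH2 probe set and high on this dim one.

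Probe set 1582819_at had signals of 86.4, 83.8, 38.6 and 50.7 on HHcy 5 to 8, against 29.8, 97.8, 17.9 and 48.5 on controls 1 to 4, a log2 difference of 0.37 (exact permutation p = 0.371). Probe set 1582833_at stayed under 24 on all HHcy arrays, at 4.81 to 7.16, against 5.27 to 34.7 on the controls, a log2 difference of -0.31 (exact permutation p = 0.171). Most signals of that last probe set lay under the pseudocount, so its order of dogs carries little weight. KCNE2, an accessory subunit that can join KCNH2 channels, was looked at after its values were seen. Of its 6 probe sets, 4 passed the brightness filter and none was called. The KCNE2 probe set brightest by mean log2 value, 1583066_at, had 470.8, 175.6, 203.2 and 309.6 on HHcy 5 to 8, against 297.7, 196.3, 402.1 and 130.2 on controls 1 to 4 (log2 fold change 0.17 ± 0.39, SE, limma adjusted p 0.836), with overlapping groups. On 1583067_at KCNE2 had 383.8, 6.77, 317.8 and 171.2 on HHcy 5 to 8, against 427.0, 272.3, 595.6 and 287.8 on controls 1 to 4. HHcy 6 was the lowest on that probe set, and the log2 fold change was -1.24 ± 0.68 (SE, limma adjusted p 0.357) with all arrays and -0.41 without HHcy 6.

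KCNJ2, the inward rectifier, lay just under the brightness filter, which a constant signal of 69.7 would just reach. Its probe set 1582618_at had 34.3, 41.2, 59.0 and 81.4 on HHcy 5 to 8, against 53.6, 80.3, 51.5 and 85.3 on controls 1 to 4. HHcy 5 and HHcy 6 were the lowest pair, and HHcy 8 was the second highest of the 8. The means were 54.0 ± 21.0 (SD) in the 4 HHcy dogs and 67.7 ± 17.6 (SD) in the 4 control dogs. The log2 difference was -0.25 (exact permutation p = 0.371), and fitted by limma without the filter it had a 95% interval from -1.14 to 0.64 (adjusted p 0.806). Of the 10 probe sets, KCNJ2 had the narrowest range of signals among controls, 1.66-fold.

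**Figure D3:**
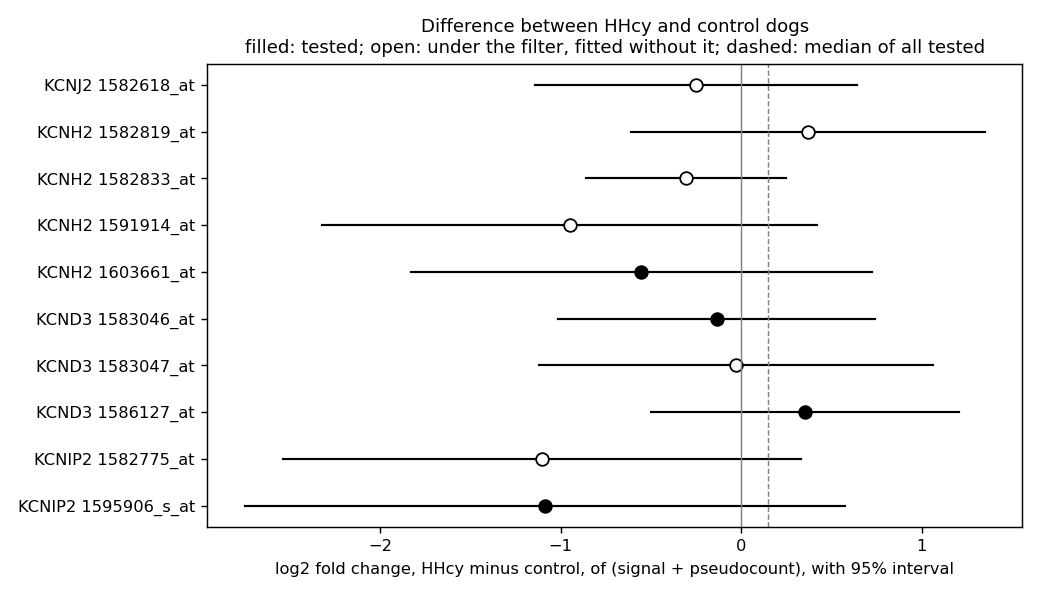
Log2 fold change, HHcy minus control, of each potassium channel probe set with its 95% interval from limma, filled where the probe set was bright enough to test and open where it was fitted without the filter. The dashed line is the median of all 14301 tested probe sets, 0.15. All 10 intervals include 0, the widest tested one reaching -2.75 for KCNIP2.

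The brightest probe sets of KCNIP2, KCND3 and KCNH2, the 3 genes tested, all had negative log2 fold changes, with a median of -0.55. Over the brightest probe sets of all 5015 tested genes the median was 0.14, and 2013 were negative. Over all 4 tested potassium channel probe sets, of which KCND3 1586127_at was positive, the median was -0.35, against 0.15 over all tested probe sets. Other scalings of the arrays moved the median over all tested probe sets from 0.15 to 0.011 with quantile normalization and to -0.18 with median scaling. The signs of the 4 tested potassium channel probe sets were the same under both, but the sizes moved. With quantile normalization and with median scaling in turn, KCND3 1583046_at had -0.26 and -0.48, KCND3 1586127_at had 0.16 and 0.023, KCNH2 1603661_at had -0.72 and -0.84, and KCNIP2 1595906_s_at had -1.17 and -1.41. Without HHcy 6, the values were -0.24 for KCNIP2, -0.28 for KCND3 and 0.10 for KCNH2.

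**Figure D4:**
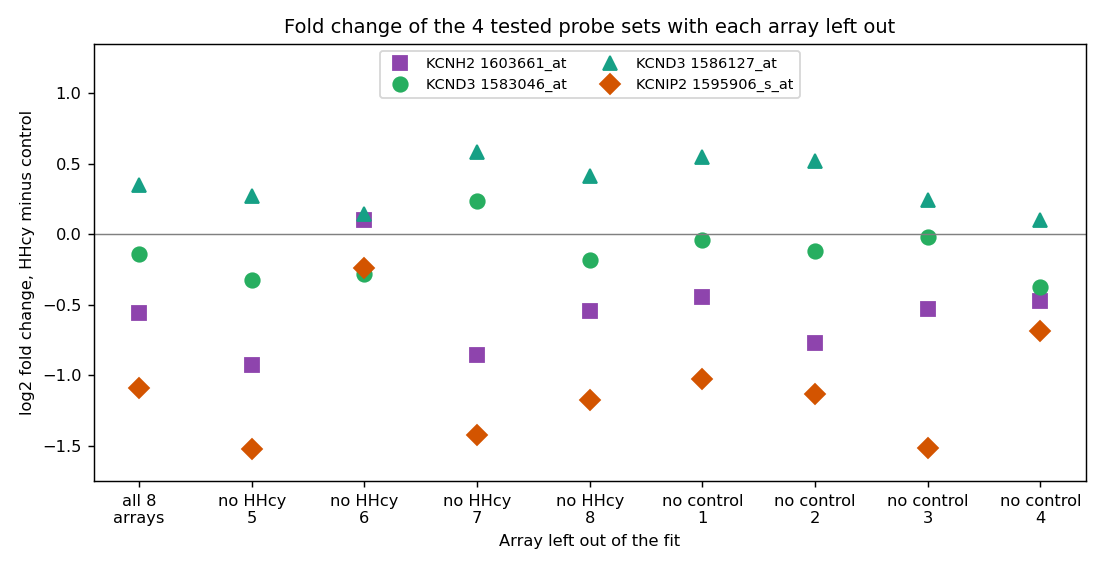
Log2 fold change, HHcy minus control, of the 4 tested potassium channel probe sets with all 8 arrays and with each array left out in turn. Leaving out HHcy 6 moves KCNIP2 to -0.24 and KCNH2 to 0.10, and leaving out HHcy 7 moves KCND3 1583046_at to 0.24.

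Other potassium channel genes showed no change that passed. Of 75 listed genes, 18 had a probe set and 9 passed the brightness filter. By limma 0 of these were called higher and 0 lower (1 higher and 1 lower at an unadjusted p under 0.05). Their median log2 fold change was 0.25, with 6 positive and 3 negative. Over all 5015 tested genes the median was 0.14, with 3002 positive and 2013 negative. KCNA5, the pore of the atrial ultrarapid current, had signals of 755, 488, 762 and 1114 on HHcy 5 to 8, against 1634, 2165, 1361 and 1152 on controls 1 to 4. All HHcy dogs lay below all control dogs (log2 fold change -1.01 ± 0.30, SE, limma adjusted p 0.162), and KCNA5 1582855_at had -0.98 ± 0.45 (SE, limma adjusted p 0.282), while KCNA5 1582856_at had 0.40 (adjusted p 0.727). Atrial markers, KCNA5 among them, had 4 tested genes of 10 listed, all 4 with negative values (3 at an unadjusted p under 0.05, 0 called by limma) and a median of -1.15, or -0.74 without HHcy 6. Of all 5015 tested genes, 237 were lower at an unadjusted limma p under 0.05. The part of atrial tissue in the KCNA5 values was not tested.

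KCNJ8, a pore subunit of ATP-sensitive channels of vascular muscle and heart, had signals of 154.2, 9.26, 250.8 and 265.7 on HHcy 5 to 8, against 286.4, 349.6, 306.9 and 381.3 on controls 1 to 4. The groups did not overlap on this probe set, 1605765_at. Its log2 fold change was -1.26 ± 0.58 (SE, limma adjusted p 0.286) and -0.54 without HHcy 6, while a dimmer KCNJ8 probe set, 1603513_at, had 0.44 (limma adjusted p 0.622). KCNH7, a relative of KCNH2 known mainly from neurons, had 235.1, 163.6, 94.6 and 137.7 on HHcy 5 to 8, against 109.4, 20.2, 92.9 and 27.5 on controls 1 to 4 (log2 fold change 1.18 ± 0.47, SE, limma adjusted p 0.233). KCNB2, a delayed rectifier pore subunit, had a log2 fold change of 1.02 ± 0.52 (SE, limma adjusted p 0.326). In both the groups overlapped.

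Channels that depolarise the cell did not pass either. Of 28 listed genes, 10 had a probe set and 5 were tested, all 5 with positive values and a median of 0.29, and limma called 0 (1 at an unadjusted p under 0.05). Of all 5015 tested genes, 3002 had positive values, and the median over all of them was 0.14. SCN2A, a sodium channel best known from brain, had 110.1, 266.9, 109.9 and 127.1 on HHcy 5 to 8, against 73.8, 81.3, 53.5 and 56.6 on controls 1 to 4. All HHcy dogs were above all control dogs, with a log2 fold change of 0.90 ± 0.37 (SE, limma adjusted p 0.248). CACNA1C, the pore of the cardiac L-type calcium channel, had a log2 fold change of 0.92 ± 0.57 (SE, limma adjusted p 0.408), with overlapping groups. That probe set, 1582781_at, was dim, and 2 of its control signals lay under the pseudocount. The other CACNA1C probe sets lay below the brightness filter, with log2 differences of 0.54, 0.98 and 0.21. The calcium channel subunits CACNB3 and CACNA1H had 0.29 and 0.17, and CACNA1H turned to -0.14 without HHcy 6.

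Proteins that anchor, traffic or degrade channels had 10 tested genes of 20 listed, with a median log2 fold change of -0.21 over the brightest probe set of each, and limma called 0 (1 higher at an unadjusted p under 0.05). That median was 0.17 without HHcy 6. Over all 19 tested probe sets of these genes the median was -0.52, and 1 was higher and 3 were lower at an unadjusted p under 0.05, the 3 being probe sets of ANK3, AKAP9 and HSPA8. FHL2, a muscle LIM-domain protein, had 8945, 524, 5753 and 7006 on HHcy 5 to 8, against 8993, 13595, 9051 and 10812 on controls 1 to 4. The groups did not overlap for FHL2, but the log2 fold change of -1.48 ± 0.71 (SE, limma adjusted p 0.296) was -0.55 without HHcy 6. CAV3, the muscle caveolin, had a log2 fold change of -0.81 with HHcy 6 and 0.25 without it. DNAJB14, a chaperone that assists assembly of potassium channels, had 0.83 ± 0.34 (SE, limma adjusted p 0.241), and the calmodulin gene CALM2 had -0.38 ± 0.25 (SE, limma adjusted p 0.433).

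Of 18 listed transcription factors, 3 were tested and limma called 0 (1 higher and 1 lower at an unadjusted p under 0.05). NFATC3, a calcineurin-dependent factor, had 326.6, 192.3, 195.7 and 190.9 on HHcy 5 to 8, against 120.5, 80.6, 151.8 and 90.9 on controls 1 to 4. All HHcy dogs were above all control dogs (log2 fold change 0.89 ± 0.32, SE, limma adjusted p 0.201). MEF2C, a muscle factor, had 1255, 1613, 1511 and 1355 on HHcy 5 to 8, against 1791, 2464, 1987 and 2054 on controls 1 to 4, and all HHcy dogs were below all control dogs (log2 fold change -0.52 ± 0.22, SE, limma adjusted p 0.255). MITF, a factor of the basic helix-loop-helix family, had -0.30 ± 0.23 (SE, limma adjusted p 0.489) on its brightest probe set, and its 4 tested probe sets disagreed. On MITF 1594840_at, singled out after its values were seen, the signals were 1711, 1236, 1198 and 1526 on HHcy 5 to 8, against 3500, 6437, 2248 and 4483 on controls 1 to 4. All HHcy dogs lay below all control dogs there (log2 fold change -1.45 ± 0.32, SE, limma adjusted p 0.120). The other tested MITF probe sets, 1594841_at and 1582599_at, had 0.59 and -0.74 with overlapping groups.

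Of the measured markers of other cells, each taken by its brightest probe set, limma called 0 higher and 0 lower (8 macrophage, 4 fibroblast and 1 blood cell marker were higher at an unadjusted p under 0.05). By the same measure 584 of all 5015 tested genes were higher at an unadjusted limma p under 0.05. The 12 measured macrophage markers of 16 had summed signals of 13017 to 23760 in HHcy, against 7100 to 9902 in controls. The 6 measured fibroblast markers of 12 had 26360 to 75060 in HHcy, against 15539 to 23545 in controls. Such sums weigh the brightest genes most. Gene by gene, 5 fibroblast markers had positive log2 fold changes and 1 a negative one. Their median was 1.17, or 0.76 over all their tested probe sets. By array, as log2 values relative to the control mean, the fibroblast median was 0.15 on HHcy 8. That lay below control 1 (0.35) and control 2 (0.55). The 5 measured smooth muscle markers of 7 had summed signals of 9696 to 63267 in HHcy, the highest on HHcy 6. The controls had 7654 to 14438, so that these groups overlapped. Of the smooth muscle markers, 3 had positive and 2 negative log2 fold changes. No marker was at 0. The 4 measured endothelial markers of 10 had a median log2 fold change of -0.033. Blood cell markers (3 of 10 measured) had a median log2 fold change of 0.56, and neuronal and glial markers (2 of 10 measured) had 0.95 with HHcy 6 and -0.053 without it. Their part in the potassium channel values was not tested.

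Likeness to other genes was measured over the 8 arrays as the root mean square difference between log2 profiles, each first centred on its own mean. For KCNIP2 the nearest of 5014 genes were PDK2, a kinase that inhibits pyruvate dehydrogenase, at 0.45, DHRS7C, a dehydrogenase of the muscle sarcoplasmic reticulum, at 0.57, and AKAP13, an anchoring protein for protein kinase A, at 0.60. All 3 had their lowest signal on HHcy 6, at 40.6, 207.9 and 15.1. This follows from the choice by likeness, because KCNIP2 was itself lowest there. For KCNH2 the nearest were GPX3, the extracellular glutathione peroxidase, at 0.25, GATD3A at 0.30 and HADHB, a subunit of the mitochondrial trifunctional protein of fatty acid oxidation, at 0.32. These too were lowest on HHcy 6. For KCND3 the nearest were MIF4GD, a translation factor partner, at 0.23, LOC477528 at 0.26 and KMT2A, a histone methyltransferase, at 0.26, and these were lowest on HHcy 7. The neighbours of KCNH2 and KCND3 likewise share the lowest array of the gene they were chosen for, which is no separate result. The median distance to all 5014 genes was 1.48 for KCNIP2, 1.09 for KCNH2 and 0.74 for KCND3. These distances ran in the order of each gene's own root mean square spread over the arrays, 1.36, 0.94 and 0.57.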

How the data were processed

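The authors deposited linear probe set intensity values, for which the submitters' processing notes name MAS5 and no version. The arrays share a trimmed mean signal of about 500.1 units. Precision is limited by having 4 arrays in each group.

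Groups came from the sample titles; the labels speak of separate dogs, and give no batch. A pseudocount of 24, the 20th percentile of the values, was added before taking log2, which understates folds of dim genes. After leaving out 77 control probe sets and the dimmest 40%, 14301 were tested with limma 3.58.1 in R 4.3.3, with moderated variances, a trend on intensity and a Benjamini-Hochberg threshold of 0.05. Dimmer members were compared by exact permutation over the 70 assignments. The procedure was tested on simulated data, where it called 14% of added changes of log2 size 1, 72% of size 2, 84% of size 3 and 90% of size 4. Most changes of log2 size 1 were thus missed there. The simulated noise was independent between probe sets and equally wide on every array, unlike these data, where HHcy 6 stood apart. The rates are averages over randomly chosen probe sets. They need not hold for the brightest KCNIP2 and KCNH2 probe sets, which had SEs of 0.76 and 0.58. The annotation's gene identifiers for the 4 genes matched RefSeq. Named genes were all members, up to 4 genes per channel list of lowest p (2 per marker list), and the 3 nearest profiles. KCNQ1 with KCNE1 was not compared. Members and lists were chosen with earlier results of these data known.

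Alternatives were other scalings, pseudocounts of 6 and 96, filters, variance models, array weights, a covariate made from the actin and GAPDH 3'/5' ratios, and arrays left out.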

Additional observations from a re-analysis of the deposited data

Results flagged for a closer look

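Within a group of 4, an array was picked out when its gap to the nearest other relative to the group's range on the log2 scale exceeded Dixon's 95% critical value. Chance flags about 1 in 20 groups, and 17 of 84 groups met this, 10 of them on HHcy 6. Among potassium channel probe sets, KCNH2 1591914_at was high on HHcy 6 (123.1, against 8.25 to 16.1 on the other HHcy arrays), KCND3 1583047_at on HHcy 5 (120.7, against 2.88 to 11.3) and KCNIP2 1582775_at on HHcy 8 (34.9, against 5.81 to 7.03).

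HHcy 6 was low against the other HHcy arrays for the muscle genes FHL2 (524, others 5753 to 8945), CAV3 (186, others 3101 to 4687), MYL3 (27.4, others 6933 to 14579), TNNT2 (24.5, others 5900 to 9450) and MYL2 (3542, others 32716 to 43038). It was high for SCN2A (266.9, others 109.9 to 127.1), the smooth muscle genes ACTA2 (28849, others 2073 to 2961) and TAGLN (10692, others 1078 to 1518), and the glial marker S100B (2281, others 52.4 to 92.1).

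The other arrays picked out were HHcy 5 for NFATC3 (326.6), HHcy 8 for CD14 (479.5), control 2 for CALM2 (16380), and control 4 for COL1A2 (452.5) and CD3D (79.0).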

How the results depend on the processing

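No potassium channel probe set passed limma's test under any of the 18 alternatives run. The direction of 1595906_s_at (KCNIP2) turned with a 3'/5' ratio covariate (0.14), as did 1603661_at (KCNH2, 0.16) and 1586127_at (KCND3, -0.017). Without HHcy 5 and HHcy 6, the reversed values were -0.084 for 1586127_at, 0.049 for KCNJ2 and 0.17 for KCNIP2 minus KCND3. KCND3 1583047_at was 0.046 with a pseudocount of 96. With 1 array left out, log2 values ran from -1.52 to -0.24 for 1595906_s_at, from -0.93 to 0.10 for 1603661_at, from -0.38 to 0.24 for 1583046_at, from -0.58 to 0.23 for 1583047_at, from 0.10 to 0.59 for 1586127_at and from -1.66 to 0.043 for KCNIP2 minus KCND3. The exact p of KCNH2 1582833_at, 0.171 with all arrays as deposited, was 0.0286 with quantile normalization and without control 3; its signals lie near background. The cause of these shifts was not tested.

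Over all tested probe sets, 14 were called, against 7 with quantile normalization, 22 with median scaling (15 higher, 7 lower), 9 with the dimmest 60% left out, 76 with array weights (61 higher, 15 lower), 5 with the covariate, 5 without HHcy 5 and HHcy 6, and 3 to 31 with 1 array left out. The median log2 fold change over all was -0.18 with median scaling. No paired analysis was possible because the groups share no replicate numbers. Dim signal limits KCNJ2 and the fainter probe sets.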
